A study of Mus musculus with 8 samples.

Results

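A pair of circadian phases of the mouse liver was compared: CT17, the middle of the subjective night, and CT11, the end of the subjective day, 6 h earlier. CT counts hours of the internal day. CT17 was represented by the libraries CT41 (first day) and CT65 (second day), and CT11 by CT35 (first day) and CT59 (second day). The step was thus taken between 4 of the 8 libraries of the series, while the test estimated its spread from all 8. All were polyadenylated RNA of livers of wild-type (WT) C57/BL6 mice, kept for a week on 12 h light and 12 h dark and moved to complete darkness a day ahead of collection; sex and age are not given in the labels. Each library pooled RNA of 3 animals, and each time has 1 library. The p-values therefore measure the spread between single pooled libraries, in which pool, sequencing lane and day cannot be told apart, and not the spread between animals. In such bulk samples, fewer cells of a type and less RNA per cell cannot be told apart.

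The circadian clock is a loop of transcription factors. BMAL1 (encoded by Arntl) pairs with CLOCK or NPAS2 and activates genes through E-boxes, among them their own repressors of the PER, CRY and CIART families. The REV-ERB receptors (Nr1d1, Nr1d2) repress Arntl through RORE sites, where the ROR receptors activate, and the D-box factors DBP, TEF and HLF act against the repressor NFIL3. In the liver this loop runs together with the daily cycle of feeding and fasting.

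CT35 stood apart from the other libraries. It had 14.4 M recovered gene reads, against 6.52 to 7.57 M in the other 7. Introns free of annotated exons made up 6.94% of its reads, against 11.04 to 12.57% in the others, and its 10 most abundant genes took 30.4%, against 23.2 to 27.5% in the others. Counts of calls are given with and without CT35, and calls of named genes that are lost without it are named. Hepatocyte markers summed to 65730 and 49590 RPKM in CT41 and CT65, against 81540 and 51330 RPKM in CT35 and CT59, and none of 12 was called. Kupffer cell markers summed to 194 and 128 RPKM against 156 and 162 RPKM, endothelial markers to 151 and 112 against 140 and 124 RPKM, stellate markers to 70.1 and 88.3 against 72.4 and 64.95 RPKM, cholangiocyte markers to 45.7 and 44.2 against 61.5 and 34.8 RPKM, lymphocyte markers to 4.06 and 3.20 against 4.08 and 4.97 RPKM, and erythroid markers to 77.0 and 56.3 against 101 and 54.5 RPKM. None of the tested markers of these types was called, and the part of these cells in the results was not tested.

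Of 10854 genes tested, 86 (0.792%) were called, which means an adjusted p under 0.05 (limma, Benjamini-Hochberg over all tested genes) and the same direction on both days. At CT17, 46 genes (0.424%) rose and 40 (0.369%) fell relative to CT11. Their median change was 3.04-fold and 23 of them changed at least 4-fold. All 46 rises had both CT17 libraries above both CT11 libraries, as did 13.9% of all tested genes, and all 40 falls had both below, as did 37.3%. At an unadjusted p under 0.05 the count was 2205 genes (20.3%). By size alone, 169 genes (1.56%) moved at least 2-fold on both days, 87 upward (0.802%) and 82 downward (0.755%), and 81 of them were among the called ones.

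The split between rises and falls moved with the scaling. The median log2 step of all tested genes was -0.18 on the deposited scale, and 50.4% of genes were lower at CT17 on both days while 19.7% were higher. With TMM scaling the median was -0.02 and the calls were 111 rises and 35 falls, and with equal medians 119 and 36. Count models on recovered reads, which change the test as well as the scaling, gave 167 and 42 with edgeR and 358 and 94 with DESeq2. None of the 86 called genes changed sign in these 4 fits. Each call was at least 1.998-fold and the fits used the same reads, so nothing is read from that. Because the median moved with the scaling, steps of gene groups are given below relative to the median of all genes. Calls within groups stand beside 0.424% of all tested genes that rose and 0.369% that fell. The groups were drawn up with earlier results of these data known, so their counts of calls are descriptions only.

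The calls also depended on single libraries. In fits without CT35, CT41, CT59 or CT65 the direction could not be compared between days. A call in these fits, here and elsewhere, means an adjusted p under 0.05 alone. Without CT65 the count was 14, without CT35 38, without CT41 49, and without CT59 539. Of the 86 genes, 32 were also called without CT35 and 14 without CT65. With the day as a block, 74 genes were called, and 69 of the 86 were among them. The 11 genes called whichever of the 8 libraries was left out were Arntl, Col15a1, Dbp, Gpcpd1, Mt2, Nr1d2, Pitx3, Pnkd, Rgs16, Syt1 and Tubb2a.

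**Figure D1:**
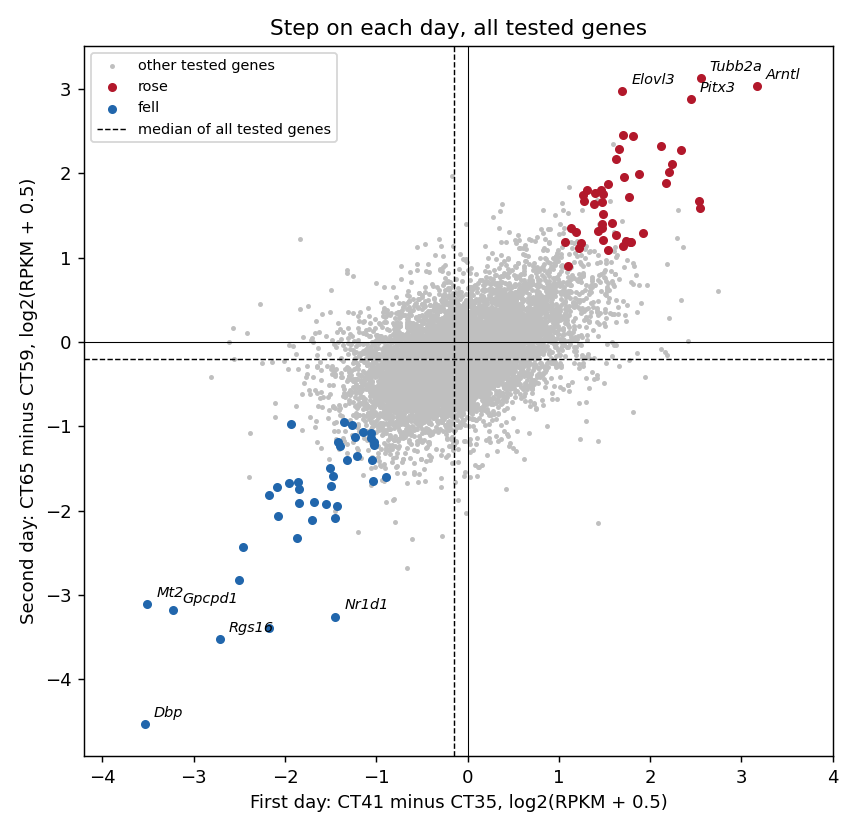
Log2 step of each tested gene on the first day (CT41 minus CT35, x axis) and on the second day (CT65 minus CT59, y axis), on the scale log2(RPKM + 0.5); red points are the 46 genes that rose, blue points the 40 that fell, grey points the other tested genes, and dashed lines the medians of all genes (-0.15 and -0.20). Called genes lie in the upper right and lower left corners, and Nr1d1 moved more on the second day (-3.25) than on the first (-1.45).

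Arntl, on chromosome 7 (mm9, 120350979 to 120457636, plus strand), had the largest rise. It stood at 6.45 and 9.08 RPKM in CT41 and CT65, against 0.271 and 0.673 RPKM in CT35 and CT59. Both CT17 libraries were thus far above both CT11 libraries, with a log2 step of 3.10 (SE 0.33, adjusted p = 0.00271). Its partner Clock had 4.17 and 4.97 RPKM at CT17, against 2.03 and 2.57 RPKM at CT11, and did not pass the test (log2 step 0.86, SE 0.24, adjusted p = 0.108). Npas2, the alternative partner, was still low at CT17, with 0.123 and 0.362 RPKM, against 0.0104 and 0.061 RPKM at CT11, while its CT23 libraries held 5.48 and 4.08 RPKM. Rora, encoding a receptor that activates at RORE sites, had 5.77 and 6.27 RPKM at CT17, against 7.58 and 9.51 RPKM at CT11 (adjusted p = 0.259). Of 5 activators tested, 1 rose and none fell, against 0.424% and 0.369% of all tested genes.

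The repressors split into separate courses. Nr1d1 fell to 5.50 and 2.80 RPKM at CT17, against 15.9 and 31.0 RPKM at CT11 (log2 step -2.35, SE 0.37, adjusted p = 0.0164; 0.14 without CT65); 10.0% of its transcript overlaps Thra on the other strand. Nr1d2 fell to 1.92 and 1.62 RPKM, against 7.36 and 8.61 RPKM at CT11 (log2 step -1.90, SE 0.21, adjusted p = 0.00271). Ciart, which encodes a repressor of the BMAL1 pair, fell to 4.82 and 3.45 RPKM, against 29.7 and 27.3 RPKM (log2 step -2.66, SE 0.33, adjusted p = 0.0051; 0.0512 without CT65). Both Rev-erb genes and Ciart had no overlap between the phases, as held for all 40 genes that fell and 37.3% of all tested genes. Per3 had 4.18 and 2.22 RPKM at CT17, against 8.20 and 9.65 RPKM at CT11, and did not pass (adjusted p = 0.0578). Cry1 had 5.30 and 5.16 RPKM at CT17, against 2.48 and 2.45 RPKM at CT11 (log2 step 0.95, SE 0.21, adjusted p = 0.064; with edgeR 0.013), and Per2 had 24.5 and 19.9 RPKM, against 12.3 and 16.1 RPKM (adjusted p = 0.237). Per1 moved opposite ways on the 2 days, with log2 steps of 0.24 and -0.97. Cry2, Bhlhe40 and Bhlhe41 had log2 steps of -0.36, -0.23 and -0.86 and were not called. Of the 10 repressors, 3 fell and none rose, against 0.369% and 0.424% of all tested genes.

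Among the D-box factors, Dbp had the largest fall of all named genes. It stood at 8.43 and 3.51 RPKM at CT17, against 103 and 91.9 RPKM at CT11 (log2 step -4.03, SE 0.44, adjusted p = 0.00271). The Dbp transcript measured here is 801 bases long and 56.2% of it overlaps Sphk2 on the opposite strand, so that reads of the 2 genes cannot be separated there. Reads across Dbp splice junctions numbered 21 and 13 at CT17, against 717 and 266 at CT11, with a log2 step of -3.87 (edgeR, adjusted p = 0.00074). Nfil3, the repressor at the same sites, rose to 12.5 and 11.03 RPKM, against 3.73 and 4.27 RPKM at CT11 (log2 step 1.45, SE 0.27, adjusted p = 0.0336; the call was lost when any one of CT23, CT35, CT41, CT47 or CT65 was left out, with adjusted p up to 0.152). Tef had 17.8 and 12.5 RPKM, against 34.2 and 35.1 RPKM (adjusted p = 0.096), and Hlf had 107 and 112 RPKM, against 69.0 and 122 RPKM, with overlapping phases. The Hlf transcript measured here is 245 bases long. Its log2 step was 0.25, against -0.32 by junction reads (edgeR, adjusted p = 0.633). None of 7 other clock regulators, which include casein kinases and F-box proteins, was called.

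**Figure D2:**
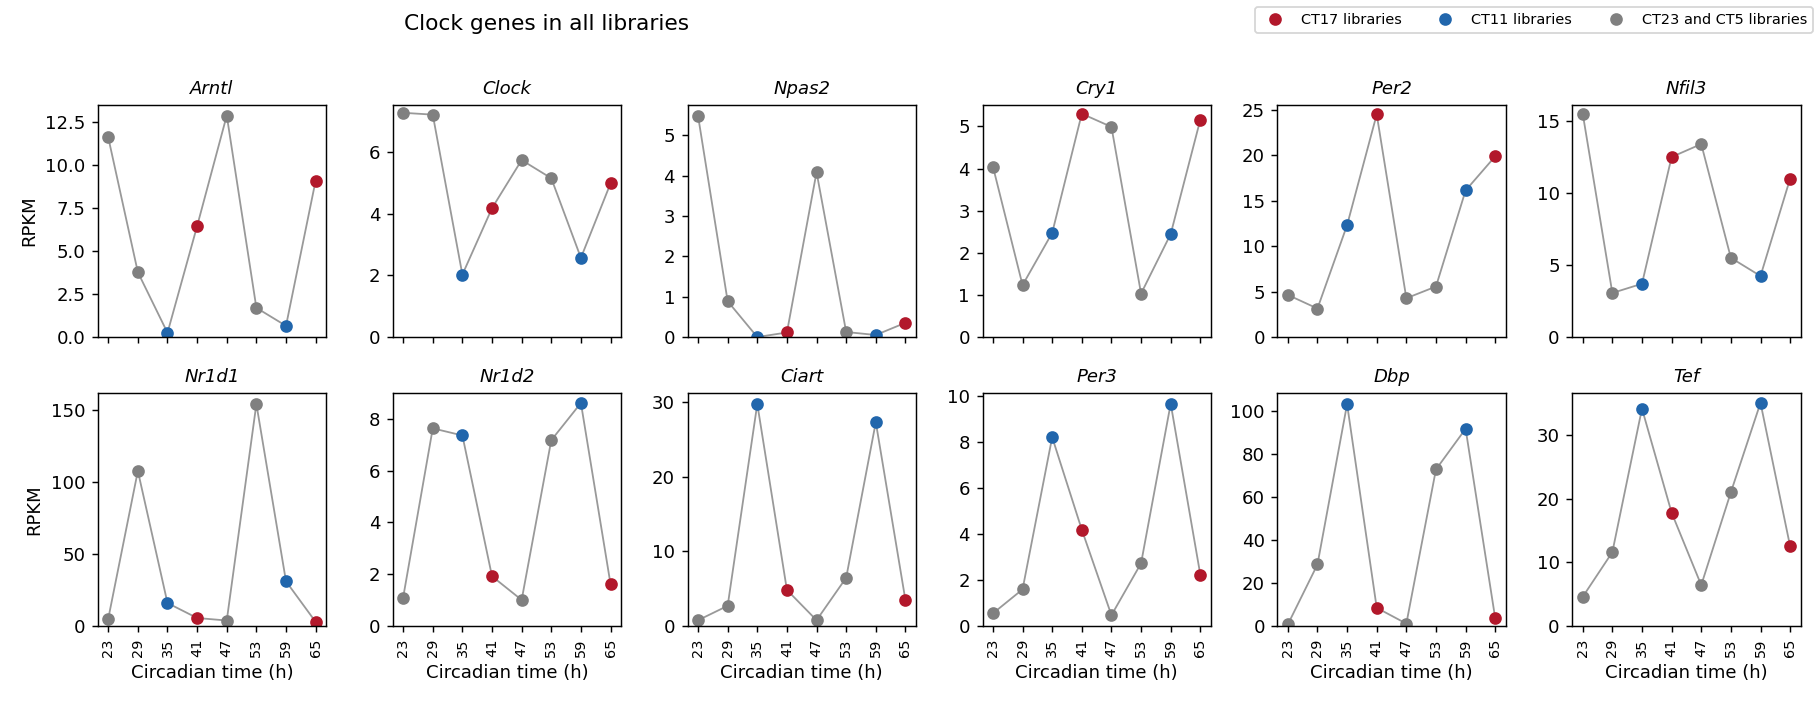
RPKM (y axis, from 0) of 12 clock genes against circadian time in hours (x axis) in all 8 libraries; red points are CT17 libraries, blue points CT11 libraries, grey points CT23 and CT5 libraries, 1 pooled library each. Arntl is lowest at CT35 and CT59 (0.271 and 0.673 RPKM), where Dbp is highest (103 and 91.9 RPKM).

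The 250 bases before the annotated start are given for the largest rises and falls that the RefSeq promoter table holds (GRCm38.p6; Gpcpd1, the third largest fall, is named only). They are shown because these genes moved most. Each was searched on both strands for the E-box CACGTG, the D-box TTATGNAA, the RORE TAGGTCA and the heat shock element, and none of these 4 occurs in any of the 5 windows. A metal response element, TGCACNC or TGCGCNC, was added after the falls of Mt1 and Mt2 had been seen, and its matches are in capitals, overlapping ones joined. The sequences run 5′ to 3′ on the gene's strand. The windows are chr7:113207215-113207464 (plus strand) for Arntl, the first of its 2 listed starts, chr13:34078009-34078258 (minus) for Tubb2a, chr19:46148326-46148575 (minus) for Pitx3, chr7:45704997-45705246 (plus) for Dbp and chr8:94172368-94172617 (plus) for Mt2.
Arntl: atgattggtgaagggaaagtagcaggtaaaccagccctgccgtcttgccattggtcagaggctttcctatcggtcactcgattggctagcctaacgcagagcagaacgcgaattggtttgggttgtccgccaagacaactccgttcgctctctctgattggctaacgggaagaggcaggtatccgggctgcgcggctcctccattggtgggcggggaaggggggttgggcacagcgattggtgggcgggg
Tubb2a: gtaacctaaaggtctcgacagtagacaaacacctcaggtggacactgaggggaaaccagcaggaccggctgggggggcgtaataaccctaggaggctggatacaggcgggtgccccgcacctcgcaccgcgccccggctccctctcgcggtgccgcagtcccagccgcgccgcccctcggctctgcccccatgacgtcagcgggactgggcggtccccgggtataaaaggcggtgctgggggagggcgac
Pitx3: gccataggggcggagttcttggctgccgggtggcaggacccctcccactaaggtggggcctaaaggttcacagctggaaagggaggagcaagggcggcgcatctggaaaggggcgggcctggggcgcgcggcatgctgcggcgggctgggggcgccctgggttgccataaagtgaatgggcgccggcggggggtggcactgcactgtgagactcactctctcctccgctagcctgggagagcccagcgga
Dbp: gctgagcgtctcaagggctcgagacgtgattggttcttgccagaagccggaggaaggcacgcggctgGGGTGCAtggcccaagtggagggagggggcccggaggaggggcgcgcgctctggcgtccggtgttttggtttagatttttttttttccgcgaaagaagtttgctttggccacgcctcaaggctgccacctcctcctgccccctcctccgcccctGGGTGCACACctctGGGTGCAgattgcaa
Mt2: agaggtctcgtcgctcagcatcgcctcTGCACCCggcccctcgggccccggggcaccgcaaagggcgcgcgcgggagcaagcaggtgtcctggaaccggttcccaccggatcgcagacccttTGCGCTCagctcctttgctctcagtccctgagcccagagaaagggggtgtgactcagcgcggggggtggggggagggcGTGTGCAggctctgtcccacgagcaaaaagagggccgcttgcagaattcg

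Dbp held 4 matches to the metal response element and Mt2 held 3, and the other 3 windows held none. The element is common: 21.4% of all 32851 promoter windows of this length have a match. The table held promoters for 36 of the 46 genes that rose and 32 of the 40 that fell. An E-box was in 4 of the 36 and 5 of the 32, against 6.86% of all genes, a D-box in 1 and 2, against 3.63%, a RORE in 2 and 0, against 2.55%, a heat shock element in 0 and 0, against 0.514%, and the metal response element in 9 and 9, against 23.8%. A match describes these letters only.

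The metallothioneins, small proteins that bind zinc and copper, fell together. Mt2 stood at 1.69 and 3.89 RPKM at CT17, against 24.5 and 37.3 RPKM at CT11 (log2 step -3.31, SE 0.44, adjusted p = 0.00693). Mt1, its neighbour on chromosome 8, stood at 47.7 and 84.4 RPKM, against 264 and 458 RPKM (log2 step -2.44, SE 0.35, adjusted p = 0.0101; 0.0586 without CT41). The 2 genes are paralogs, so some reads may have been shared. Both are known targets of glucocorticoids. Of 14 tested genes on a list of glucocorticoid-induced genes, 2 fell and 1, Cdkn1a, rose, against 0.369% and 0.424% of all tested genes. The list median was -0.26 relative to all genes. It was -0.36 without CT35, -0.29 without CT41, -0.20 without CT59 and -0.29 without CT65. Other members were Fkbp5, with 7.59 and 5.35 RPKM at CT17, against 13.2 and 10.7 RPKM at CT11 (adjusted p = 0.167), and Tsc22d3, with 43.2 and 32.02 RPKM, against 45.2 and 35.5 RPKM (adjusted p = 0.857). Fkbp5 and Tsc22d3 were picked after their values were seen.

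Several further genes had large falls. Gpcpd1, encoding a phosphodiesterase of glycerophosphocholine, stood at 2.80 and 4.22 RPKM at CT17, against 30.3 and 42.1 RPKM at CT11 (log2 step -3.20, SE 0.36, adjusted p = 0.00276). Rgs16, a regulator of G-protein signalling, stood at 0.769 and 0.0925 RPKM, against 7.84 and 6.30 RPKM (log2 step -3.12, SE 0.33, adjusted p = 0.00271). Gm14097 stood at 3.46 and 2.30 RPKM, against 17.4 and 28.9 RPKM (adjusted p = 0.0556 without CT65), and 10.2% of it overlaps Shld1 on the other strand, which also fell (log2 step -1.76; not called without CT35, CT41 or CT65, nor without CT23 or CT47). Id1, an inhibitor of helix-loop-helix factors, stood at 1.31 and 1.19 RPKM, against 7.20 and 5.04 RPKM, and was not called without CT35, CT41 or CT65 (adjusted p up to 0.131). In these 4 genes both CT17 libraries were below both CT11 libraries, as in all 40 genes that fell and 37.3% of all tested genes.

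Among rises outside the clock, Tubb2a, a beta-tubulin with close paralogs, stood at 34.5 and 38.6 RPKM at CT17, against 5.47 and 3.97 RPKM at CT11 (log2 step 2.84, SE 0.24, adjusted p = 0.00152). Pitx3, a homeobox factor, stood at 3.79 and 5.91 RPKM, against 0.285 and 0.370 RPKM (log2 step 2.66, SE 0.25, adjusted p = 0.0023). No reads across splice junctions were matched to Pitx3, so no spliced reads back its step. Its introns stood at 1.12 and 3.40 RPKM at CT17, against 0.0504 and 0.0981 RPKM at CT11 (log2 step 4.04). How much of the Pitx3 value came from unspliced RNA was not tested. Its transcript overlaps Elovl3 on the other strand by 0.653%. As the strand setting is not given, whether reads of Elovl3 entered the Pitx3 values was not tested. Elovl3, an elongase of very long fatty acids, lies beside Pitx3 on chromosome 19 on the other strand and rose with it. It stood at 39.9 and 63.2 RPKM, against 11.98 and 7.60 RPKM (log2 step 2.33, SE 0.30, adjusted p = 0.00536; 0.0641 without CT65). Pnkd stood at 87.9 and 111 RPKM, against 17.03 and 22.5 RPKM. The tight-junction gene Cldn1 stood at 20.8 and 27.7 RPKM, against 4.02 and 6.04 RPKM, and the collagen gene Col15a1 at 5.36 and 8.54 RPKM, against 1.17 and 1.16 RPKM. Cdkn1a, which encodes the cell-cycle inhibitor p21, stood at 3.67 and 5.66 RPKM, against 0.778 and 0.623 RPKM. Mical2, Clic3 and Shank2 also rose, with log2 steps of 2.22, 2.10 and 2.06, each measured on a short transcript of 676, 362 and 641 bases. With the transcript of most reads their log2 steps were 1.41, 1.84 and 1.38. The log2 step of Col15a1 was 2.13, and 1.505 with the transcript of most reads. Junction reads of Col15a1 numbered 82 and 106 at CT17, against 140 (in the deeper CT35) and 30 at CT11. Their step was not called (log2 step 1.23, edgeR, adjusted p = 0.231). Mical2, Cldn1, Clic3, Cdkn1a and Shank2 were not called without CT35, with adjusted p up to 0.0965. Mical2, Cldn1, Cdkn1a and Shank2 were not called without CT65 either, with adjusted p up to 0.146, nor were Clic3 and Shank2 without CT41, with adjusted p up to 0.0731.

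**Figure D3:**
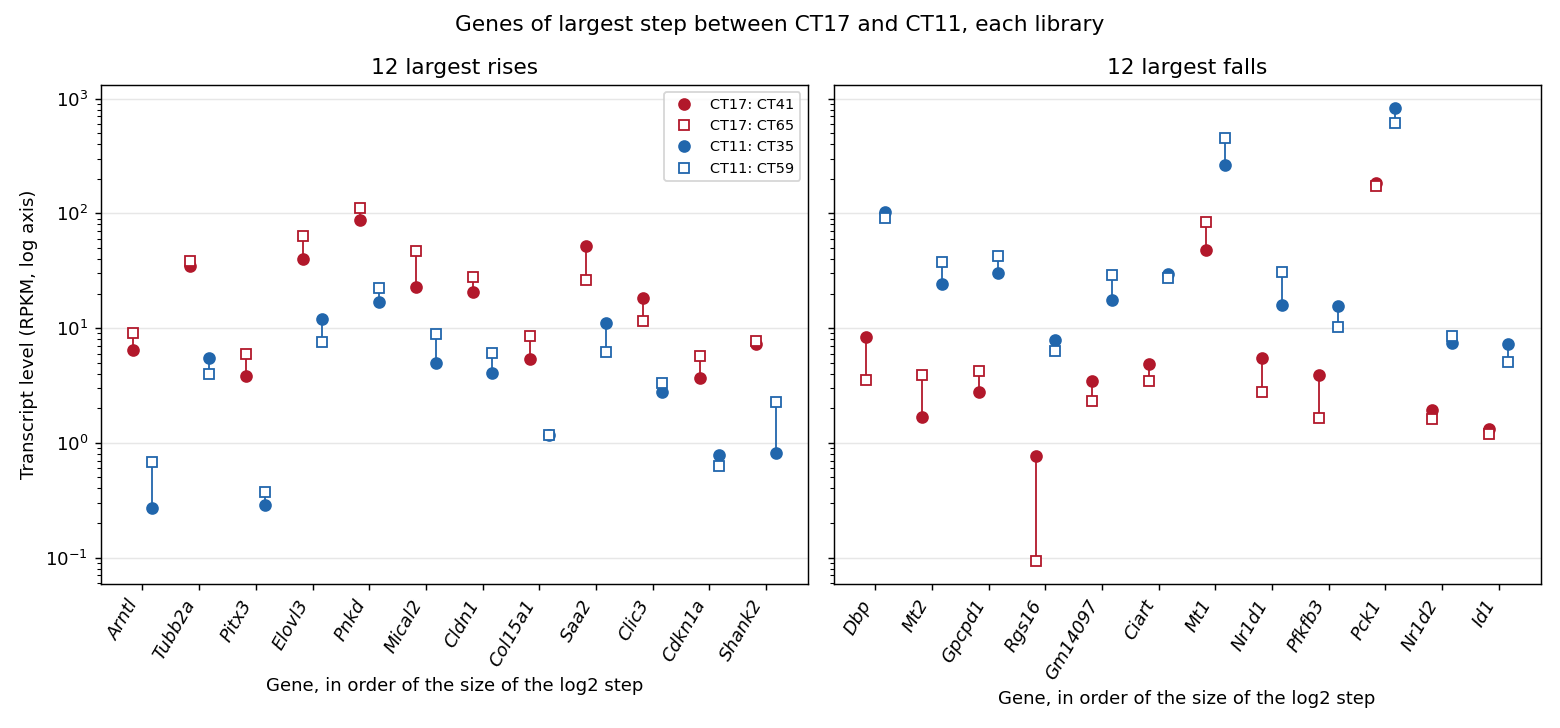
RPKM on a log axis of the 12 genes with the largest rises (left) and the 12 with the largest falls (right); red marks are CT17 libraries and blue marks CT11 libraries, filled circles the first day and open squares the second, and lines join the libraries of a phase. In all 24 genes the 2 phases do not overlap, as in every called gene, from which these were picked. Of all tested genes, 13.9% had both CT17 libraries above both CT11 libraries and 37.3% had both below. Rgs16 has the widest gap between its CT17 libraries (0.769 and 0.0925 RPKM).

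Among 23 tested genes of fatty acid and triglyceride synthesis, 1 rose, Elovl3, and none fell, against 0.424% and 0.369% of all tested genes. The list median was 0.52 above that of all genes. It was 0.60 without CT35, 0.45 without CT41, 0.39 without CT59 and 0.66 without CT65. Of the members, 15 were above the median of all genes on both days and 5 were below it on both. Among all genes 33.6% were above and 33.6% below. Mlxipl, encoding the carbohydrate-sensing factor ChREBP, had 341 and 349 RPKM at CT17, against 115 and 181 RPKM at CT11 (adjusted p = 0.0685; 0.0445 with TMM). Fasn, the fatty acid synthase, had 527 and 525 RPKM, against 405 and 168 RPKM (log2 step 1.01, adjusted p = 0.166; 1.64 and 0.048 without CT35, where it was called). Scd1, the most abundant member not called, had 2046 and 1682 RPKM, against 1235 and 1211 RPKM (adjusted p = 0.192). Lpin1, which makes diacylglycerol, ran the other way, with 38.95 and 11.99 RPKM, against 90.2 and 58.99 RPKM (adjusted p = 0.0891). Mlxipl, Fasn and Lpin1 were picked after their values were seen.

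Glucose handling gave single calls, beside 0.792% of all tested genes called either way. Pck1, which commits carbon to gluconeogenesis, fell to 185 and 174 RPKM at CT17, against 835 and 611 RPKM at CT11 (log2 step -1.99, SE 0.39, adjusted p = 0.0443; 0.203 without CT35, 0.118 without CT41 and 0.221 without CT65). It was the 1 called member of 11, and the abundant Fbp1 had a log2 step of -0.19. Pfkfb3, which raises the activator of phosphofructokinase, fell to 3.87 and 1.63 RPKM, against 15.5 and 10.1 RPKM (log2 step -2.10, SE 0.38, adjusted p = 0.0332; 0.17 without CT35 and 0.229 without CT65). It was the 1 called member of 16 on the glycolysis list. Ppp1r3c, a scaffold that steers a phosphatase to glycogen, rose to 16.6 and 22.3 RPKM, against 5.05 and 4.57 RPKM (log2 step 1.90, SE 0.24, adjusted p = 0.0051; 0.0696 without CT65), the 1 called member of 10. Slc38a2, an amino acid transporter, fell to 7.003 and 7.148 RPKM, against 17.5 and 14.6 RPKM (adjusted p = 0.0423). Its call was lost with TMM (0.0507), with the day as a block (0.0751) and when any one library other than CT59 was left out (up to 0.244).

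Among 20 tested heat shock chaperones, 1 rose and none fell, against 0.424% and 0.369% of all tested genes. Of the 20, 14 were above the median of all genes on both days (33.6% of all genes were) and 1 was below it on both; the list median was 0.72 above that of all genes, 0.43 without CT41, 0.48 without CT59 and 0.89 without CT35. Only Stip1, a co-chaperone that links HSP70 with HSP90, was called: it rose to 66.2 and 68.7 RPKM at CT17, against 27.7 and 30.3 RPKM at CT11 (log2 step 1.21, SE 0.22, adjusted p = 0.0336), and its call was lost when any one library other than CT59 was left out, with adjusted p up to 0.243, and with the day as a block (0.064). With TMM 5 members were called, Stip1, Hsp90aa1, Bag3, Hspa4l and Hsph1, the last 4 named after their values were seen. Hsp90aa1, the inducible HSP90, had 51.3 and 69.4 RPKM, against 23.4 and 19.03 RPKM (adjusted p = 0.0505; 0.0262 with TMM). The abundant Hspa8 had 677 and 490 RPKM, against 456 and 330 RPKM (adjusted p = 0.307).

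Acute phase genes, whose proteins the liver secretes in inflammation, gave 2 rises among 20, against 0.424% of all tested genes. Saa2 stood at 52.3 and 26.2 RPKM at CT17, against 10.96 and 6.13 RPKM at CT11 (log2 step 2.11, SE 0.35, adjusted p = 0.021; 0.0971 without CT41); reads may be shared with its paralog Saa1. Lcn2, an iron-scavenging lipocalin, stood at 24.7 and 26.9 RPKM, against 7.89 and 9.77 RPKM (log2 step 1.499, SE 0.23, adjusted p = 0.0148; 0.0786 without CT35, 0.0613 without CT41 and 0.138 without CT65). In this list 15 of 20 members were above the median of all genes on both days and 4 below it on both, against 33.6% of all genes each way. The list median was 0.37 above that of all genes, and 0.20 without CT35. Hamp, the iron hormone hepcidin, moved opposite ways on the 2 days (log2 steps 1.19 and -0.15).

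The proteasome and the cytosolic ribosomal proteins had no calls among 30 and 29 members. Their medians were -0.30 and -0.28 relative to all genes, -0.02 and 0.03 without CT35, and -0.50 and -0.75 without CT59. No gene was called either in cholesterol synthesis (24 tested), bile acid synthesis and transport (15), fatty acid oxidation (22), the unfolded protein response (24), insulin signalling (16), immediate early genes (13), NRF2 targets (16), cytochromes P450 (15), NAD metabolism (11), splicing regulators (14), ribosome biogenesis (20), autophagy (20) or amino acid breakdown (20). Since 0.792% of all tested genes were called, lists of these sizes need hold no call, and they are not shown to be unchanged. The bile acid list had a median of -0.37 relative to all genes (-0.20 without CT35). Of its 15 members, 8 were below the median of all genes on both days and 2 above it on both.

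**Figure D4:**
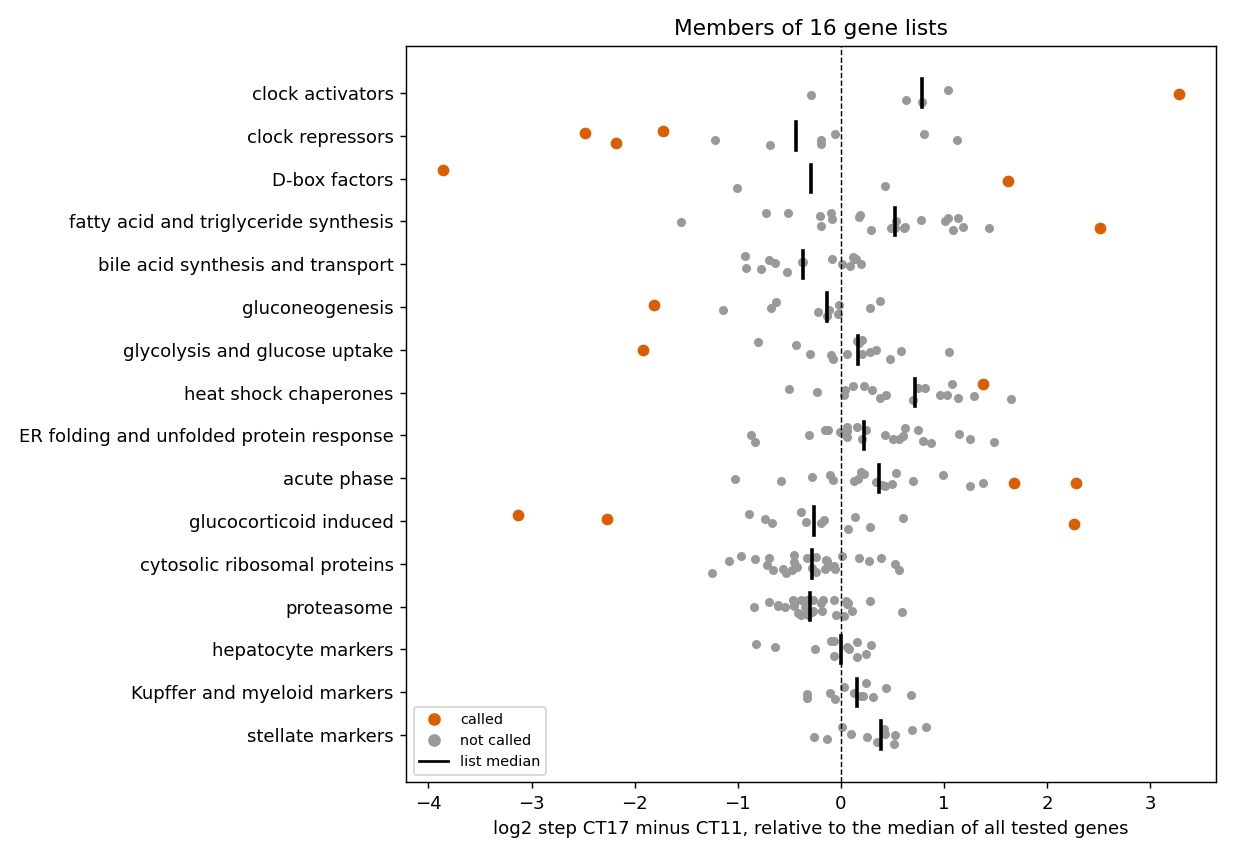
Log2 step CT17 minus CT11 of each tested member of 16 gene lists, relative to the median of all tested genes (x axis, dashed line at 0); orange points are called, grey points are not, and black bars are list medians. The heat shock chaperones have a median of 0.72 and the proteasome one of -0.30.

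Introns and splice junctions gave other readouts of the same libraries. Reads in introns can come from unspliced RNA. Introns that hold annotated exons of other transcripts were kept, so their reads can also come from spliced RNA. Clic3 introns stood at 29.03 and 16.2 RPKM at CT17, above its transcript at 18.43 and 11.55 RPKM. Of 8731 genes with measurable introns, 66 (0.756%) were called, 47 higher (0.538%) and 19 lower (0.218%) at CT17. Without CT35, the library with the lowest intron share, 2 were called, without CT59 622, and with the day as a block 127. The median intron step was 0.20 on the first day and -0.16 on the second. On introns free of annotated exons, a setting added after seeing the data, 74 genes were called, 56 higher and 18 lower. Of the 86 called genes, 67 had measurable introns, 63 of these moved the same way on both days as the transcript did, and 26 were called. These genes were picked by their transcript steps in the same libraries, and the share among all genes was not computed. Nothing is therefore read from these counts. Arntl introns stood at 0.268 and 0.391 RPKM at CT17, against 0.021 and 0.0516 RPKM at CT11 (log2 step 2.14, adjusted p = 0.0012). Mt2 introns stood at 0.434 and 0.183 RPKM, against 3.66 and 6.47 RPKM (log2 step -3.87). Elovl3 introns stood at 10.9 and 26.6 RPKM, against 0.456 and 1.73 RPKM (log2 step 4.17). Without CT35 the adjusted p of these 3 intron steps was 0.0584. The intron step of Nr1d1 was -1.44 (adjusted p = 0.104), and -2.19 (adjusted p = 0.00163) on introns free of annotated exons, an alternative chosen after seeing the data. By junction reads, which were tested as counts with edgeR, 110 of 9515 genes (1.16%) were called, 83 higher (0.872%) and 27 lower (0.284%). All 72 called genes with junction reads enough for the test had the same sign there, and 47 of them were called. Junction reads come from the same libraries that picked these genes, so nothing is read from that agreement.

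**Figure D5:**
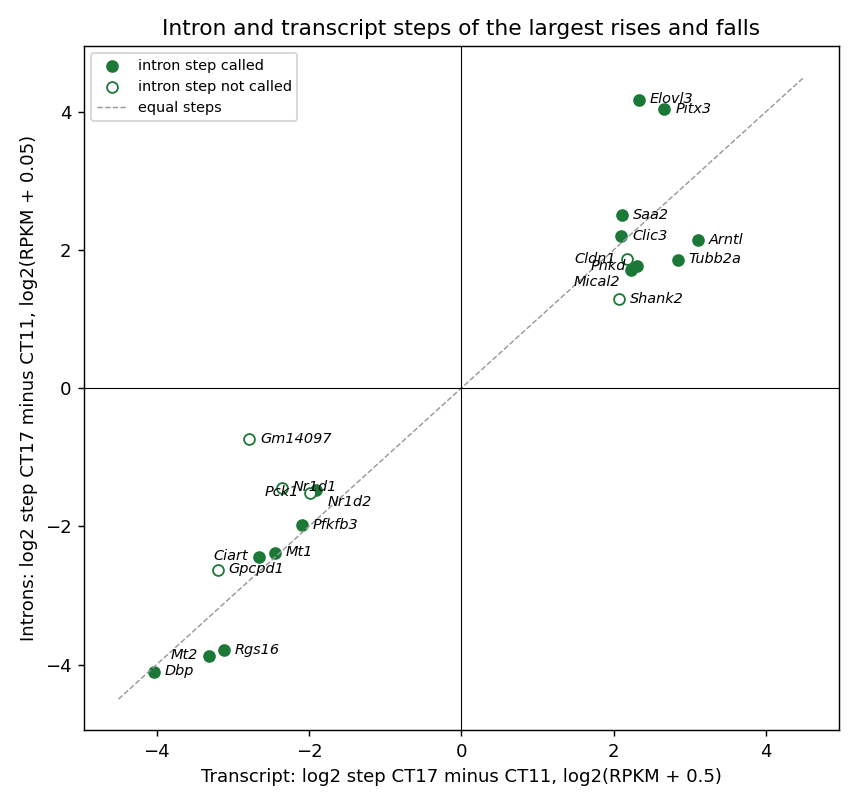
Log2 step of introns, log2(RPKM + 0.05) (y axis), against that of the transcript, log2(RPKM + 0.5) (x axis), for the 21 genes among the 24 largest rises and falls with measurable introns; filled points have a called intron step, and the dashed line marks equal steps. All 21 share a sign, and 15 intron steps were called. The genes were picked by transcript steps in the same libraries, so nothing is read from the shared sign. Of the called ones, Mical2, Clic3, Dbp and Ciart had no value on introns free of annotated exons. Among the rest only Pfkfb3 had an adjusted p above 0.05 there (limma, 0.0798).

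The step was also set against that on the opposite side of the cycle, CT5 minus CT23. The 2 steps differed for 250 genes (2.3%), 108 of them higher (0.995%) and 142 lower (1.31%) in CT17 minus CT11. The largest differences on the log2 scale were -9.13 for Dbp, -7.10 for Nr1d1, -6.17 for Rgs16, -4.86 for Gpcpd1 and -4.56 for Ciart, and 5.79 for Pitx3, 5.399 for Clic3, 5.14 for Arntl, 4.48 for Cdkn1a and 4.29 for Ppard, which encodes a fatty acid receptor. The rise of Ppard between CT11 and CT17 itself (log2 step 1.71, adjusted p = 0.0421) was lost when CT23, CT29, CT35, CT53 or CT65 was left out, with adjusted p up to 0.274. Of the 86 called genes, 79 were called here; since both tests use the same CT17 and CT11 libraries, nothing is read from that number. For the other 7, Efna3, Gba2, Lcn2, Mir546, Pstpip2, Vps33b and Zfas1, the steps were not shown to differ, and none of the 7 kept its CT17 minus CT11 call without CT35 or without CT65. Lcn2 had steps of 1.499 and 0.82 on the 2 sides (difference 0.68, adjusted p = 0.304).

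Over the 4 phases, the mean level of the 46 genes that rose was highest at CT23 in 25 genes, at CT17 in 20 and at CT5 in 1. That of the 40 genes that fell was lowest at CT17 in 30 and at CT23 in 10. These genes were picked by their CT17 minus CT11 step in the same libraries. A rise could therefore not be highest at CT11, nor a fall lowest there. The shares among all tested genes were not computed, and nothing is read from these counts. Saa2 belonged to the rises highest at CT17, with 8.19 and 6.74 RPKM in CT23 and CT47, while Pitx3 went on to 10.9 and 14.7 RPKM there.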

How the data were processed

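The authors deposited, per transcript, a lower and an upper value (min and max, per the file headers), which scale as RPKM, and counts of reads per splice junction. The genome build is mm9 (per the submitters' processing notes), and the junction track lines name RUM, per the file headers. The quantifier and the strand setting of the transcript tables are not given here. The lower value was used. It was a whole multiple of 1 read within 0.1 read for 99.98 to 100% of values, which gave recovered reads. For each gene, the transcript of largest summed lower value was taken; 79705 of 115699 transcripts (68.89%) could be named. A gene was tested where 2 or more libraries held 20 or more of its recovered reads, with limma 3.58.1 (trend, robust) on log2(RPKM + 0.5), which understates changes of weak genes, with phase means over all 8 libraries (4 residual degrees of freedom). Introns were tested alike with a pseudocount of 0.05, and junctions with edgeR 4.0.16. Alternatives included DESeq2 1.42.0. Scripts were tested on simulated data. Named genes were the 12 largest rises and falls with a mean of at least 5 RPM, all clock genes, up to 3 called members and the 2 most abundant uncalled members of each list, and the 5 largest differences from the opposite step each way. The members and lists were chosen with earlier results of these data known. A few single genes are not reported here.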

Additional observations from a re-analysis of the deposited data

Results flagged for a closer look

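Of the 111 named genes, 31 had log2 steps of opposite sign on the 2 days, against 29.9% of all tested genes; the difference between days was not tested. Values are given for 29 of them. On the first and second day, the log2 steps were opposite for Per1 (0.24 and -0.97), Bhlhe40 (0.13 and -0.59), Hlf (0.63 and -0.13), Csnk1d (0.24 and -0.17), Fbxw11 (0.06 and -0.27), Slc27a5 (0.23 and -0.18) and Slc10a1 (0.29 and -0.41). The same held for Tat (-0.03 and 0.25), P4hb (-0.31 and 0.02), Shmt2 (0.28 and -0.16), Slc3a2 (0.44 and -0.08), Hamp (1.19 and -0.15), Errfi1 (0.00 and -0.68) and Igf1 (0.24 and -0.09). Further such genes were Zfp36 (0.46 and -0.48), Myc (-1.51 and 0.36), Gstm1 (0.32 and -0.15), Cyp2e1 (0.16 and -0.64), Qprt (-0.18 and 0.29), Srsf2 (0.03 and -0.13), Npm1 (0.18 and -0.48) and Rpl4 (-0.63 and 0.01). The last were Psmb2 (-0.54 and 0.06), Hpd (0.50 and -0.18), C1qb (0.62 and -0.10), Eng (0.13 and -0.29), Dcn (-0.12 and 0.47), Cd79a (0.67 and -0.27) and Alas2 (-0.51 and 0.20). None of these 29 genes was called. The widest gaps were those of Myc, whose RPKM was 5.67 and 3.47 at CT17, against 17.01 and 2.60 at CT11, and of Hamp.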

How the results depend on the processing

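The number of called genes was 86, and 146 with TMM, 155 with equal medians, 209 with edgeR, 452 with DESeq2, 36 with only the 4 libraries compared, 220 with at least 100 reads, 2 with no low-read filter and 302 with the transcript of most reads, the last chosen after seeing the data; leaving out 1 library gave 14 to 539. With the day as a replicate block 74 were called; it moved no count by over 1.5 times except introns, 127 against 66. The count against the opposite step (250) ran from 85 to 355 without 1 library, that of introns (66) from 2 to 622, and that of junctions (110) from 21 to 602, with 216 by DESeq2 and 397 without a filter. The count of genes past 2-fold on both days (169) was 972 at 1.5-fold, 36 at 3-fold and 254 with a pseudocount of 0.1. The cause of these moves was not tested. Depth limits weak genes: on a transcript of 1 kb, 1 RPKM stood for 11.7 to 22.9 reads. No called named gene changed sign under these alternatives, which use the same libraries, so nothing is read from that. Uncalled named genes changed sign as follows. With TMM the log2 steps were Fbxw11 0.0653, Slc10a1 0.127, P4hb 0.0393, Zfp36 0.178, Srsf2 0.136, Npm1 0.0364, Lamp1 0.172, Clec4f 0.0347, Eng 0.103 and Alas2 0.0325. With equal medians the log2 steps were Fbxw11 0.065, Slc10a1 0.112, P4hb 0.0238, Zfp36 0.164, Srsf2 0.122, Npm1 0.0219, Lamp1 0.157, Clec4f 0.0212, Eng 0.0895 and Alas2 0.0188. By edgeR the log2 steps were Fbxw11 0.0841, Slc10a1 0.141, P4hb 0.0177, Zfp36 0.136, Srsf2 0.138, Npm1 0.012, Lamp1 0.173, Clec4f 0.0365 and Eng 0.13. By DESeq2 the log2 steps were Fbxw11 0.0784, Slc10a1 0.148, Fbp1 0.00302, P4hb 0.0249, Zfp36 0.143, Srsf2 0.145, Npm1 0.0191, Lamp1 0.181, Clec4f 0.0429 and Eng 0.136. On the transcript of most reads the log2 steps were Csnk1d -0.0468, Slc27a5 -0.144, Hpd -0.0208 and Reln -0.203. Leaving out 1 library gave log2 steps of Alas2 -0.535 to 0.23, Alb -0.647 to 0.159, Bhlhe40 -0.567 to 0.108, C1qb -0.0177 to 0.536, Cd79a -0.244 to 0.646, Clec4f -0.341 to 0.0413, Csnk1d -0.215 to 0.278, Cyp2e1 -0.575 to 0.0893, Dcn -0.0643 to 0.416, Eng -0.456 to 0.293, Fbxw11 -0.334 to 0.122, Gstm1 -0.137 to 0.302, Hamp -0.00542 to 1.05, Hba-a1 -0.773 to 0.281, Hlf -0.16 to 0.663, Hpd -0.0559 to 0.373, Igf1 -0.243 to 0.393, Lamp1 -0.0308 to 0.00192, Myc -1.82 to 0.674, Npm1 -0.416 to 0.117, P4hb -0.433 to 0.138, Per1 -0.89 to 0.159, Psmb2 -0.566 to 0.0826, Pygl -0.0174 to 0.874, Qprt -0.167 to 0.283, Shmt2 -0.0667 to 0.189, Slc10a1 -0.342 to 0.223, Slc27a5 -0.0949 to 0.139, Slc3a2 -0.116 to 0.475, Srsf2 -0.118 to 0.0212, Tat -0.139 to 0.356 and Zfp36 -0.35 to 0.336.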
